A study of Mus musculus with 36 samples.

Results

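The AP-1 transcription factors studied here are 9 genes, taken by symbol from the count table: Fos, Fosb, Fosl1, Fosl2, Jun, Junb, Jund, Atf3 and Batf3. All 9 were found among the 21442 genes of the table. Their messenger RNA was measured in mouse cells on the way from fibroblast to pluripotent cell, with or without the zinc finger protein Zfp266. The 12 groups, each of 3 libraries, were wild-type (WT) and Zfp266 knockout (KO) cells at 6 stages: embryonic fibroblasts (MEF), days 3, 5 and 7 of reprogramming (D3, D5 and D7), induced pluripotent stem cells (iPS) and embryonic stem cells (ESC).

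The transgenic fibroblasts came from E12.5 chimeric embryos, made by aggregating ESCs with host morulae from B6CBAF1 females, and the labels give the strain as 129. The ESC-derived cells carried Cas9 at Rosa26, a Nanog reporter (GFP-ires-Puro), and in the Sp3 locus a cassette of Myc, Klf4, Oct4, Sox2 and mOrange that doxycycline switches on. The WT fibroblasts and reprogramming cells were transduced with a non-targeting guide RNA and the KO cells with a guide against Zfp266, so those KO libraries were pools of edited cells rather than clones. Fibroblasts were collected 96 h after transduction. For reprogramming, the transgenic fibroblasts were mixed with WT 129 fibroblasts and kept in ESC medium with doxycycline at 300 ng/ml and vitamin C at 10 µg/ml, and cells expressing mOrange were sorted. The iPS libraries were clones lifted at day 15 and kept in puromycin at 1 µg/ml, with KO established by genotyping. KO ESCs were also single-cell clones, made with a Zfp266 guide plasmid that expressed BFP, while the WT ESC samples came from the parental line. The steps from MEF to D3 and from D7 to iPS changed medium, sorting and factor expression together, which cannot be told apart, whereas D3, D5 and D7 shared medium, doxycycline and the sort. The paper names library preparation date as a batch effect, removed for its exploratory plots. The tests here hold no term for that date, and its part in differences between groups was not tested. Nothing in the labels states that same-group reprogramming samples came from separate embryos, so p-values measure the spread between these samples.

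AP-1 is a dimer of basic leucine zipper proteins that binds DNA at a short palindrome and activates or represses nearby genes. Jun proteins pair with each other or with Fos proteins, whereas Fos proteins need a Jun partner, and Atf3 and Batf3 also pair with Jun proteins. Fos, Fosb, Jun and Junb are immediate early genes, switched on within minutes by serum, growth factors or stress through MAP kinases. In fibroblasts AP-1 occupies many enhancers, and its activity is known to act against reprogramming.

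The 250 bases before the RefSeq transcription start (GRCm38.p6, given 5′ to 3′ along the gene) are shown for Jun, Fosl2 and Atf3, the genes whose levels differed between KO and WT at D7. The windows lie at chr4:95052223-95052472 on the minus strand for Jun, chr5:32136222-32136471 on the plus strand for Fosl2 and chr1:191183334-191183583 on the minus strand for Atf3. The Atf3 and Fosl2 windows lie inside the gene as positioned by GENCODE, whose outermost transcripts start further upstream. Capitals mark the motif matches described next.
Jun: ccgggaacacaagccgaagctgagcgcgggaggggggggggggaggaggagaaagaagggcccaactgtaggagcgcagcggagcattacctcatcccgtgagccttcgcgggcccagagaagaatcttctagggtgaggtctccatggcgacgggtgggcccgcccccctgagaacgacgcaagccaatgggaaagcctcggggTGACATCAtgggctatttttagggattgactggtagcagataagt
Fosl2: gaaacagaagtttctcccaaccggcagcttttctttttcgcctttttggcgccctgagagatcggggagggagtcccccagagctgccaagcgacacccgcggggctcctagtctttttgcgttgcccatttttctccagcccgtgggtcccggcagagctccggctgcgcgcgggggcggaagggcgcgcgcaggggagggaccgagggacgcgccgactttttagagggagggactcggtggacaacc
Atf3: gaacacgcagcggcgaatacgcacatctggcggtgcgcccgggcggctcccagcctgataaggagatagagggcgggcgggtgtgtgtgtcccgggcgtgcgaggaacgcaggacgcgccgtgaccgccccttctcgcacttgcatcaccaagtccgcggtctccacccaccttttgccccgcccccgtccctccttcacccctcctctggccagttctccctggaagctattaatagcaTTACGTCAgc

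Of the 9 genes, 8 had such a window, and none of the 8 held the AP-1 site TGANTCA on either strand, which 6.87% of 27025 mouse promoter windows of the same length hold. The CRE-like sequence TGANNTCA, which differs in spacing and so cannot be the same match, is held by 3243 of the 27025 windows. It occurred in the windows of Jun (TGACATCA, 45 to 38 bases before the start) and Jund (TGAAATCA, 61 to 54 bases before the RefSeq start, which lies upstream of the Jund gene as positioned by GENCODE). A further sequence, TTACGTCA, was looked for after the windows had been read. It stood 10 to 3 bases before the start of Atf3 and in 0.477% of all windows. No window of the 8 held the serum response motif known as the CArG box, which 1.40% of windows hold. Only these 250 bases were searched, so a motif further upstream would not be seen. A match describes letters only, and these data do not show binding.

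The genes lie in GRCm38 as follows: Fos at chr12:85473890-85477273, Fosb at chr7:19302696-19310051, Fosl1 at chr19:5447547-5455946, Fosl2 at chr5:32135801-32157842, Jun at chr4:95049034-95052222, Junb at chr8:84974484-84978718, Jund at chr8:70698949-70700616, Atf3 at chr1:191170296-191218039 and Batf3 at chr1:191097847-191108945. Exons of 4 of them overlap a gene on the other strand: Fosl1 and Ccdc85b share 1163 bases, Jund and Gm11175 877, Jun and Junos 232, and Junb and Prdx2 173. The paper names a stranded library kit. Whether reads were counted by strand is not given in the sources used here, so the counts of these 4 are uncertain. For Fosl1, which shares the most, the normalised counts of Ccdc85b were 1213 ± 38.2 (SD, n = 3) in MEF_WT, 245 ± 24.7 in D3_WT and 453 ± 37.6 in iPS_WT.

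Total counts per library ranged from 19224103 to 39610939. Zfp266 itself was not lower in the KO populations at D3 or D7, with a log2 fold change (log2FC) of 0.32 ± 0.08 (SE) at D3 (FDR = 0.00883) and 0.07 ± 0.08 at D7 (FDR = 0.578). It was lower in iPS_KO, at -0.39 ± 0.07 (FDR = 9.95e-06). A guide that leaves small insertions or deletions need not change the amount of messenger RNA, so this level does not check the labels. Marker genes followed the stages. The summed level of 10 fibroblast markers, in normalised counts per kilobase of exon, was 55995 to 57839 in MEF_WT and 22.6 to 24.4 in ESC_WT, and that of 10 pluripotent cell markers was 7.09 to 10.2 and 97126 to 107719.9. A single library, MEF_KO replicate 3, stood apart from its group. Its highest correlation with a replicate, over log2 normalised counts, was 0.971, the lowest of the 36 libraries. It held 282 of the summed level of 8 epithelial markers, against 1210.3 to 1943 in the other 5 MEF libraries, and 69171 of the fibroblast markers, against 52134 to 57839. A sum weighs abundant genes most, and of the epithelial markers Krt18 had a mean of 1558 normalised counts in MEF_WT and Cdh1 4.32. MEF_KO replicate 3 enters every test through the shared estimate of spread, so calls are also given without it where they differ.

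On a scale that allows comparison between genes, normalised counts per kilobase of exon, Jund ranked first in each of the 12 groups. This gene encodes the Jun protein that is present in most resting cells. In MEF_WT it held 29.8% ± 0.374 (SD, n = 3) of the summed level of the 9 genes. Jun followed with 24.7% ± 0.259 and Junb with 19.8% ± 0.879. The 4 Fos family genes held 9.11% ± 0.311 (Fosl2), 8.27% ± 0.309 (Fosl1), 6.86% ± 0.646 (Fos) and 0.835% ± 0.181 (Fosb). In D7_WT the share of Jund was 57.2% ± 3.93 and in iPS_WT 71.4% ± 8.89, while that of Jun was 11.5% ± 0.585 in D7_WT. Atf3 held 0.472% ± 0.0762 in MEF_WT, 7.12% ± 1.12 in D7_WT and 0.219% ± 0.0657 in iPS_WT. Junb held 23.5% ± 6.62 in iPS_WT, so that Jund and Junb made up most of the summed level of these 9 genes in the iPS_WT clones. Jun, Fosl1 and Fosl2, with sizeable shares in fibroblasts, held 2.67% ± 1.08, 0.435% ± 0.208 and 0.176% ± 0.117 in iPS_WT.

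**Figure D1:**
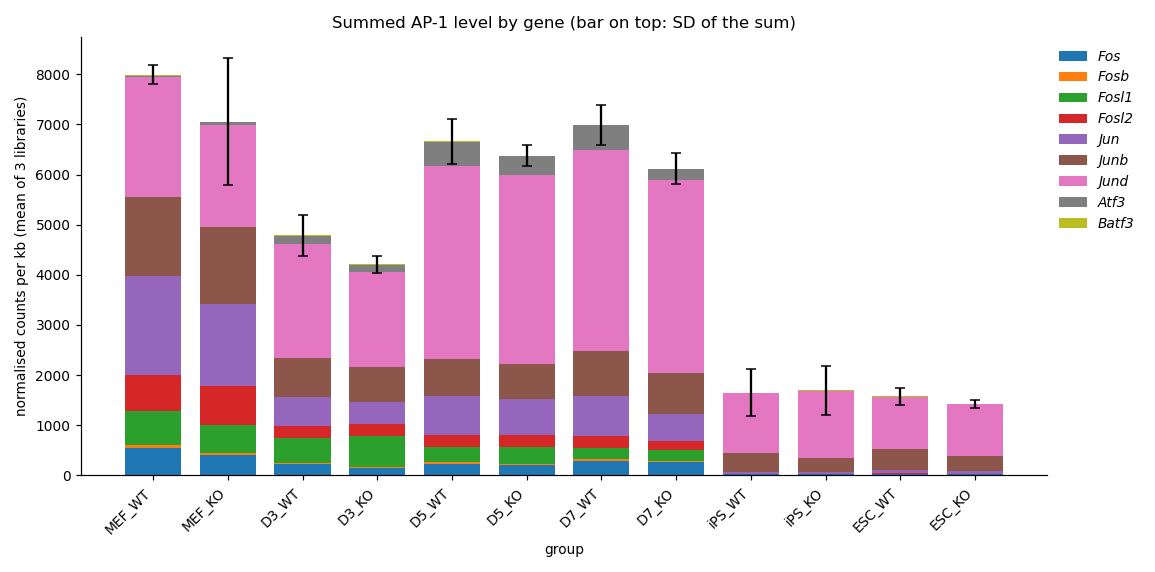
Summed level of the 9 AP-1 genes in normalised counts per kilobase of exon (y axis) in each of the 12 groups (x axis), as the mean of 3 libraries split by gene, with the SD of the sum. The WT sums were 7990.2 in MEF, 4790.5 in D3, 6659.6 in D5, 6983 in D7, 1652 in iPS and 1575 in ESC, and the Jund segment is the tallest in every bar.

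Levels of single genes are given from here on as normalised counts, which compare libraries and not genes. The first step, from MEF_WT to D3_WT, asked what happened to AP-1 as the factors were switched on. Of the 9 genes, 5 were lower at D3 and 1 was higher at FDR < 0.05, all 6 by more than 2-fold. Among all 21436 genes tested, 37.1% were lower and 33.8% higher. The median log2FC of the members was -1.02, against -0.01 over all genes. As in every comparison of bulk samples here, fewer cells of a type and less RNA per cell cannot be told apart. The fibroblast markers fell with these genes, from 55995 to 57839 down to 5143 to 6089 per kilobase (9 of 10 lower), and the epithelial markers rose from 1210.3 to 1383 up to 10673 to 14064 (7 of 8 higher). Their part in the result was not tested.

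Jun, the archetypal partner in AP-1 dimers, was at 6491, 6139 and 6225 in the 3 MEF_WT libraries and at 2093, 1437 and 1891 in D3_WT. Fosl2, a Fos family gene of later and steadier expression than Fos, was at 7007, 7129 and 6981 in MEF_WT and 2344, 2369 and 2551 in D3_WT. Every fibroblast library was above every D3 library for both genes, and the log2FC was -1.80 ± 0.23 (FDR = 3.58e-14) for Jun and -1.54 ± 0.15 (FDR = 1.45e-25) for Fosl2. Junb, the Jun gene known to weaken Jun activity in growing cells, fell from 3372 to 3863 in MEF_WT to 1601 to 1968, with a log2FC of -1.02 ± 0.16 (FDR = 1.12e-09). Fos fell from 1225 to 1393 to a wide range of 301 to 744 (log2FC -1.31 ± 0.34, FDR = 0.000186). Fosb, which encodes an early Fos protein close to Fos, went from 335 to 525 to 86.0 to 249 (log2FC -1.30 ± 0.42, FDR = 0.00350). In D3_WT both Fos and Fosb were lowest in replicate 2.

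Atf3, a stress-induced partner of Jun, moved the other way. It was at 74.8, 93.9 and 74.3 in MEF_WT and 366, 349 and 342 in D3_WT, a log2FC of 2.12 ± 0.22 (FDR = 1.34e-21), with no overlap. Jund, at 3847 to 4037 and 3556 to 4244, overlapped between these groups (log2FC -0.07 ± 0.19, FDR = 0.788). Fosl1, whose protein Fra-1 is typical of motile mesenchymal cells, was at 1315 to 1395 and 907 to 1116. These ranges did not overlap, yet its log2FC of -0.43 ± 0.33 did not pass (FDR = 0.248). It passed without MEF_KO replicate 3, at the same size of -0.43 (FDR = 0.0156). Batf3, a gene best known for dendritic cell development, was at 19.7 to 34.8 and 20.2 to 22.3 (log2FC -0.38 ± 0.46, FDR = 0.465).

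**Figure D2:**
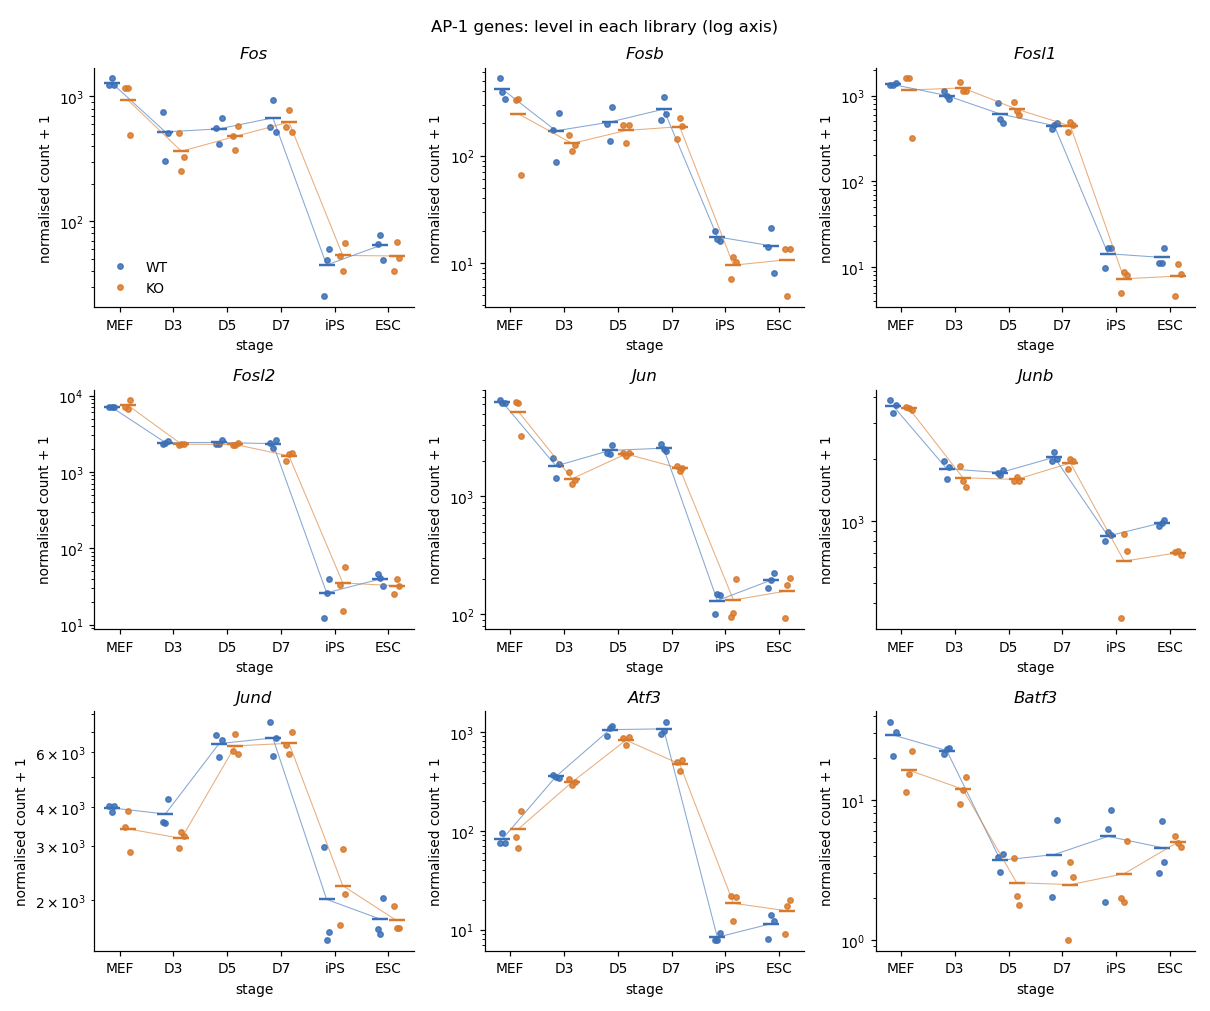
Normalised count + 1 (log y axis) of each AP-1 gene in every library, by stage (x axis), with WT in blue, KO in orange and a dash at the mean of 3. Jun, Fosl2, Fos, Fosb and Junb step down from MEF_WT to D3_WT, Atf3 climbs from 81.0 in MEF_WT to 1068 in D7_WT, and 8 of the 9 genes drop between D7_WT and iPS_WT.

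From D3_WT to D5_WT, 2 of the 9 genes rose (Atf3 and Jund) and Batf3 fell, against 12.4% of all genes higher and 12.7% lower. Atf3 reached 904, 1094 and 1148 at D5, a further log2FC of 1.57 ± 0.19 (FDR = 1.81e-14). Jund reached 6828, 5787 and 6604, a log2FC of 0.76 ± 0.19 (FDR = 0.000699). No D5 library of either gene overlapped D3. Batf3 dropped to 3, 2 and 3 raw counts from 22, 22 and 23, a log2FC of -2.99 ± 0.66 with a 95% interval of -4.28 to -1.70 (FDR = 7.34e-05). Fosl1 was at 815, 533 and 474 at D5 (log2FC -0.72 ± 0.33, FDR = 0.103), with no overlap with D3. Without MEF_KO replicate 3 it passed at D5 against D3 (FDR = 0.000199).

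Between D5_WT and D7_WT none of the 9 genes passed the test, and none had an unadjusted p below 0.05 in DESeq2, while 24.1% of all genes passed. With edgeR the counts were also 0 for both. Atf3 was at 956, 1005 and 1244 at D7 (log2FC 0.03 ± 0.19, FDR = 0.946). Fosl1 was at 404 to 476 (log2FC -0.45 ± 0.34, FDR = 0.361) and Junb at 1958 to 2164 (log2FC 0.25 ± 0.16, FDR = 0.285). Without MEF_KO replicate 3, Fosl1 passed here too (FDR = 0.0369). In a fit of only these 2 groups Junb (log2FC 0.24, FDR = 0.00685) and Fosl1 (FDR = 0.0277) passed, among 5320 of 18706 genes. The same-numbered D5 and D7 libraries deviated together. With the replicate number as a block in that fit, Junb was the single member to pass (FDR = 0.00943), among 5112 of 17483 genes.

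The step from D7_WT to the iPS_WT clones took 8 of the 9 genes down, each by more than 2-fold, against 37.7% of all genes lower. The median log2FC was -4.04 for the members and 0.01 for all genes. Atf3 fell furthest, to 6.91, 6.89 and 8.35 (log2FC -7.18 ± 0.34, FDR = 1.32e-95). Fosl2 followed, from 2374, 2065 and 2585 to a range of 11.2 to 39.0 in the clones (log2FC -6.56 ± 0.21, FDR = 1.30e-204). For both genes the highest clone was far below the lowest D7 library. Fosl1, Jun, Fosb and Fos came next, with log2FC of -5.06 ± 0.40, -4.30 ± 0.24, -4.04 ± 0.46 and -3.95 ± 0.36. Jun remained measurable, at 99.3, 147 and 144.

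Jund and Junb fell least. Jund was at 7505, 5835 and 6702 in D7_WT and 2972, 1489 and 1575 in iPS_WT (log2FC -1.73 ± 0.19, FDR = 5.09e-19). Junb was at 1958, 2164 and 2014 in D7_WT and 801, 885 and 855 in iPS_WT (log2FC -1.27 ± 0.16, FDR = 3.04e-14). Replicate 1 of iPS_WT was high for Jund and the lowest for Fosl2, Fos and Jun, so the clones differed among themselves. Batf3 was at 1 to 8 raw counts in iPS_WT and 1 to 6 in D7_WT, near the limit of detection (log2FC 0.54 ± 0.71), and did not pass.

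Between ESC_WT and iPS_WT, the 2 kinds of pluripotent cell, none of the 9 genes passed in DESeq2 or edgeR, where 3.2% of all genes did in DESeq2. Unadjusted p was below 0.05 for 2 of them, Fosl2 (log2FC 0.63 ± 0.25, FDR = 0.129) and Jun (log2FC 0.58 ± 0.25, FDR = 0.164). Without iPS_WT replicate 3, Fosl2 passed, at 1.09 (FDR = 0.00559). Against MEF_WT, whose libraries also serve the first step above, ESC_WT was lower for all 9 genes, against 39.4% of all genes. The log2FC ran from -7.52 ± 0.20 for Fosl2 to -1.19 ± 0.19 for Jund, and none of the 9 overlapped, where 41% of all genes lay lower without overlap.

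Each gene can also be placed by the order of its 12 group means. Fos, Fosb, Fosl1, Jun, Junb and Batf3 were highest in MEF_WT, Fosl2 in MEF_KO, and Jund and Atf3 in D7_WT. Of the 11 neighbouring pairs in each order, ranges did not overlap for 6 in Atf3, 4 each in Jun and Junb, 3 each in Fosl1 and Fosl2, 2 each in Fos and Jund, and 1 each in Fosb and Batf3. For all members but Batf3, each of the 8 fibroblast and reprogramming groups had a higher mean than each of the 4 pluripotent groups. Within the pluripotent groups every neighbouring pair overlapped for Fos, Fosb, Fosl2, Jun, Jund and Atf3. Atf3 was the member whose order was best resolved before pluripotency, with D7_WT and D5_WT overlapping at the top, then D5_KO, D7_KO, D3_WT and D3_KO, each apart from the next.

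The effect of Zfp266 loss was asked at each stage by comparing KO with WT. In fibroblasts no member passed the test and none had an unadjusted p below 0.05, with 0.0428% of all genes passing. With edgeR, too, no member passed here, at D3 or at D5. Fos was at 1244, 1393 and 1225 in MEF_WT and 1166, 1161 and 489 in MEF_KO, and was the single member whose groups did not overlap (log2FC -0.46 ± 0.34, FDR = 0.772), against 12.2% of all genes. The low values of MEF_KO for Fos, Fosb (329, 340.2 and 65.7), Fosl1 (1579.6, 1581 and 316) and Jun (6266, 6156 and 3243) and the high one for Atf3 (158, against a lowest of 66.2) all belonged to replicate 3. Without that library the log2FC were -0.15 for Fos, -0.32 for Fosb, 0.23 for Fosl1, -0.02 for Jun and -0.10 for Atf3, with an FDR of 1.0 for each.

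At D3 no member passed, against 0.493% of all genes, and 1 (Batf3) had an unadjusted p below 0.05. The groups did not overlap for 5 of the 9 genes, and for 14.3% of all genes in the table. Fosl1 was higher in KO, at 1419, 1141 and 1119 against 1116, 973 and 907 in D3_WT. Jund was lower, at 2944, 3317 and 3230.4 against 3588, 3556 and 4244, and so were Fosl2, Atf3 and Batf3. Batf3 was at 8.35, 10.7 and 13.6 against 20.2, 22.0 and 22.3 (log2FC -0.99 ± 0.48), and its mean was too low for an adjusted p. Same-numbered KO and WT libraries deviated together at D3, with correlations of 0.456, 0.101 and 0.272. A fit of only the D3 libraries called 1 member (Jund, FDR = 0.0358), among 308 of 13260 genes that passed. With the replicate number as a block in that fit, 4 members passed: Jun (log2FC -0.35, FDR = 0.000470), Jund (-0.26, FDR = 0.00216), Fos (-0.49, FDR = 0.00866) and Fosl1 (0.30, FDR = 0.0106). Of all genes, 556 of 12854 passed there. A block in the fit of all 36 libraries gave 0 members, where 89 of 18116 genes passed.

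At D5, again, no member passed in the fit of all libraries and none had an unadjusted p below 0.05 in DESeq2, against 7.15% of all genes passing. Atf3 was at 855, 732 and 878 in D5_KO and 904, 1094 and 1148 in D5_WT, with no overlap (log2FC -0.35 ± 0.19, FDR = 0.309). In a fit of only the D5 libraries it passed, at -0.34 (FDR = 0.0120), among 2301 of 14953 genes. Junb did not overlap either, at 1573, 1645 and 1569.9 against 1719, 1682 and 1765 (log2FC -0.11 ± 0.16, FDR = 0.806).

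At D7, 3 of the 9 genes were lower in KO than in WT and none was higher, and 16.1% of all genes were lower. All 9 log2FC were below 0, although that of Fosl1, at -0.01, was 0.03 when only the D7 libraries were fitted. The median log2FC was -0.53 for the members and -0.04 for all genes. Atf3 was at 489, 401 and 522 in D7_KO and 956, 1005 and 1244 in D7_WT. Fosl2 was at 1382, 1691 and 1777 against 2374, 2065 and 2585, and Jun at 1803, 1629.9 and 1735 against 2747, 2508 and 2415. Every KO library was below every WT library for these 3 genes, as for 26.2% of all genes.

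The log2FC of Atf3 was -1.18 ± 0.19 (FDR = 1.31e-08), the one change of more than 2-fold. That of Fosl2 was -0.53 ± 0.15 (FDR = 0.00171). Jun, at -0.57 ± 0.23, passed narrowly (FDR = 0.0492). It no longer passed in 10 of 14 other fits, among them edgeR (FDR = 0.0610) and the block in all 36 libraries (FDR = 0.0578), whereas its FDR was 0.0141 without MEF_KO replicate 3 and 5.78e-11 with only the D7 libraries. The same-numbered D7 libraries deviated together, with correlations of 0.339, 0.172 and 0.392, and the block within D7 added Fosb, at -0.50 (FDR = 0.0153). In that block fit 6403 of 18403 genes passed. Fosb was at 142, 225 and 189.7 in D7_KO and 213, 354 and 245 in D7_WT, which overlap (log2FC -0.55 ± 0.42, FDR = 0.363 without a block). Fos, Fosl1, Junb and Jund each had a log2FC between -0.11 and -0.01 and overlapped.

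**Figure D3:**
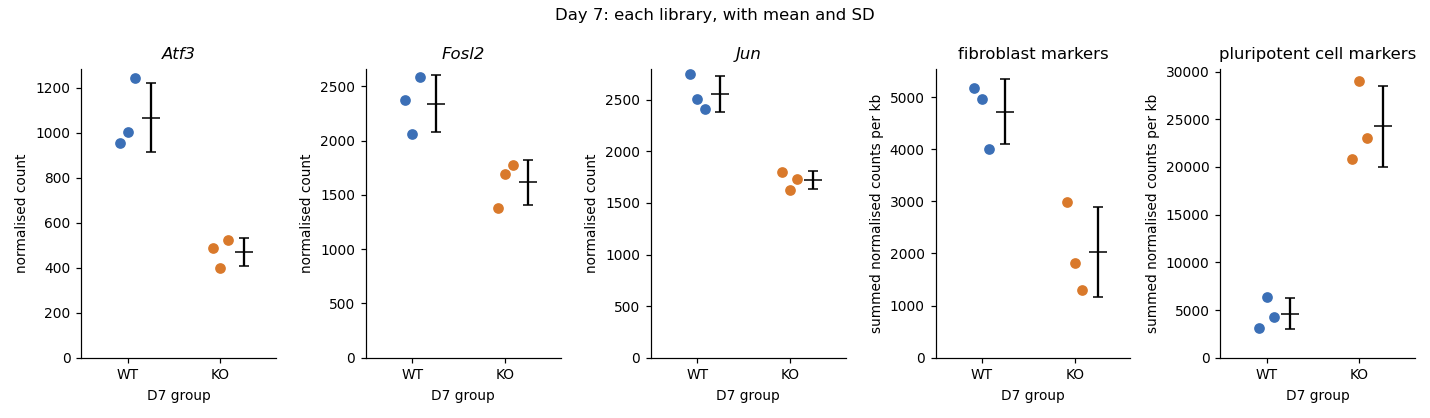
Level in each D7 library (points, WT blue and KO orange) with mean and SD of 3 (black), as normalised counts for Atf3, Fosl2 and Jun and as summed normalised counts per kilobase for 10 fibroblast and 10 pluripotent cell markers. The KO libraries sit below the WT libraries for the 3 AP-1 genes and for the fibroblast markers (1294 to 2979 against 4006 to 5169), and above them for the pluripotent cell markers (20801 to 29013 against 3164 to 6372).

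Markers of cell state moved with these results. The summed fibroblast markers were 1294 to 2979 in D7_KO and 4006 to 5169 in D7_WT, with 5 of 10 genes lower and none higher, and no marker at or under 3 counts in every library of either group. The pluripotent cell markers were 20801 to 29013 against 3164 to 6372, with 10 of 10 higher. Of 8 epithelial markers 2 were higher and 1 lower, of 8 endothelial markers 1 was higher, of 7 macrophage and blood cell markers none passed, and of 8 heat shock genes 1 was higher and 1 lower. The part of these shifts in the AP-1 differences was not tested. At D5, where the pluripotent cell markers were 1481 to 2266 in KO and 696 to 759 in WT (8 of 10 higher), the fibroblast markers were 2946 to 3500.3 against 3609.6 to 4679 (2 of 10 lower).

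Whether the KO effect grew with time was tested as a difference between log2FC within the same fit. For Atf3 the log2FC at D7 minus that at D3 was -0.99 ± 0.27 (FDR = 0.00485), and minus that at D5 it was -0.83 ± 0.27 (FDR = 0.0365). Atf3 was the single member to pass in either, against 7.19% and 3.02% of all genes lower. The D5 difference no longer passed in 9 of 19 other fits, edgeR among them (FDR = 0.113), and its FDR was 0.000546 without MEF_KO replicate 3. Fosl2 differed between D7 and D3 by -0.46 ± 0.21 (FDR = 0.126), and passed without that library (FDR = 0.0465). For Jun the differences, -0.21 ± 0.33 from D3 and -0.47 ± 0.33 from D5, did not pass.

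**Figure D4:**
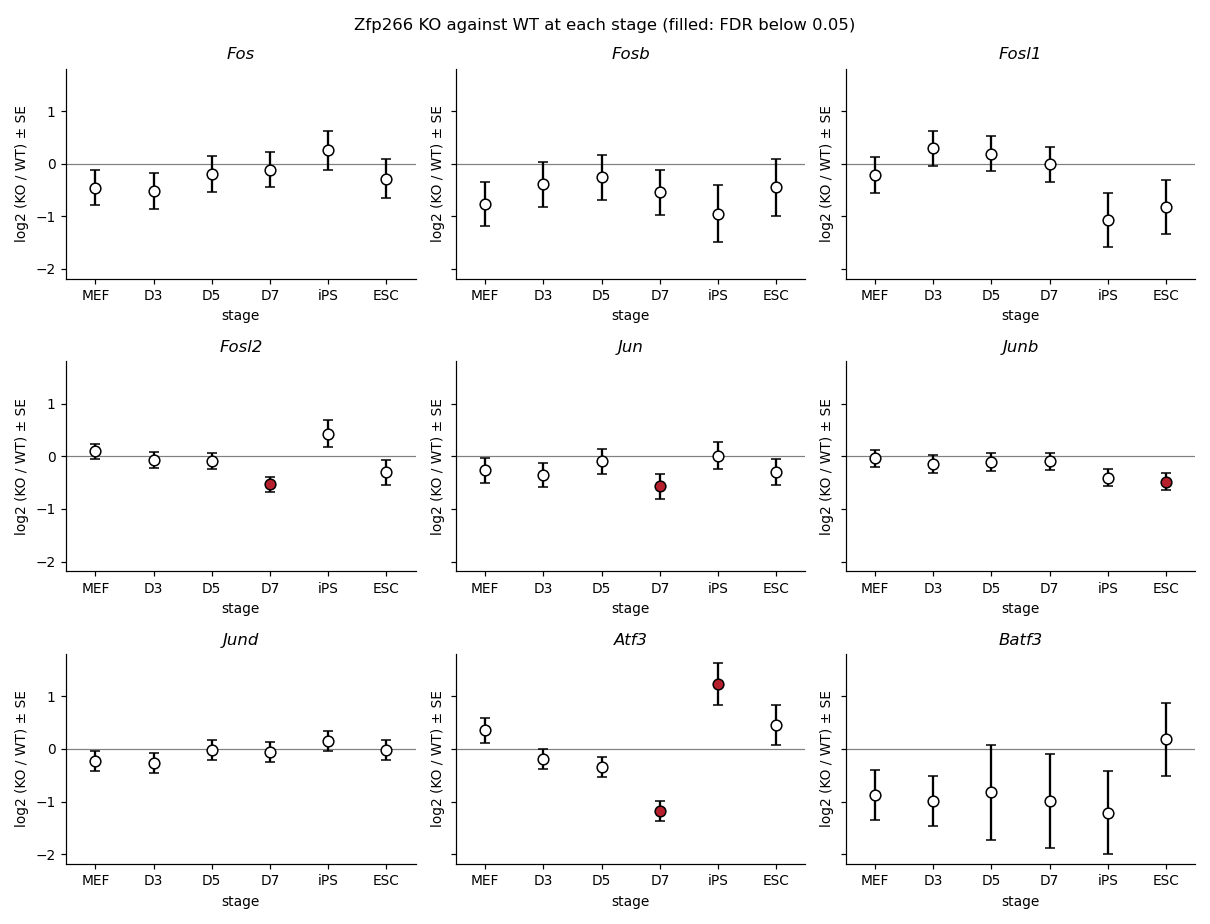
Log2 ratio of KO to WT with its SE (y axis) for each AP-1 gene at each stage (x axis), from DESeq2, with filled points at FDR below 0.05. Filled points appear at D7 for Atf3 (-1.18), Fosl2 (-0.53) and Jun (-0.57), in iPS for Atf3 (1.23) and in ESC for Junb (-0.48).

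In the pluripotent lines 1 member passed in each kind of cell. Atf3 was higher in iPS_KO, where 9.72% of all genes were higher. It was at 21.0, 11.3 and 20.2 in iPS_KO and 6.91, 6.89 and 8.35 in iPS_WT, which is 8 to 21 raw counts per library (log2FC 1.23 ± 0.39, FDR = 0.0160). No library overlapped, but the call was lost in 4 of 14 other fits, with an FDR of 0.358 when only the iPS libraries were fitted, and 1 more fit, the block within iPS, gave it no FDR. Junb was at 338, 864 and 716 in the KO clones and 801, 885 and 855 in WT (log2FC -0.40 ± 0.17, FDR = 0.0767). Without iPS_KO replicate 2 both Junb (-0.68, FDR = 0.000324) and Fosl2 (0.84, FDR = 0.00931) passed. Junb also passed without iPS_KO replicate 3 (FDR = 0.0489), Fosl2 without iPS_WT replicate 3 (0.88, FDR = 0.0253) and Jund without iPS_WT replicate 1 (0.54, FDR = 0.00877). Without iPS_KO replicate 1 or iPS_WT replicate 2 no member passed.

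In ESC_KO Junb was the single member to pass, where 4.29% of all genes were lower. It was at 706, 716 and 685 in ESC_KO and 952, 985 and 1010.2 in the parental line, with no overlap (log2FC -0.48 ± 0.17, FDR = 0.0391). The sample titles do not state whether the 3 ESC_KO libraries came from different clones. The Junb call was lost with edgeR (FDR = 0.0862) and when any 1 of the 6 ESC libraries was left out (highest FDR 0.119), while the fit of only the ESC libraries gave an FDR of 2.05e-06. Fosl1 did not overlap in either kind of pluripotent cell, at low counts. It was at 3.99, 7.81 and 7.07 in iPS_KO against 8.64, 15.5 and 15.8 in iPS_WT (log2FC -1.07 ± 0.51, FDR = 0.144), and at 3.59, 9.73 and 7.18 in ESC_KO against 10.0, 10.1 and 15.6 in ESC_WT (log2FC -0.83 ± 0.51), and passed in neither. KO and WT ESCs also differ in being clones and parental cells, which cannot be told apart from genotype. Atf3 was at 8.08, 16.5 and 18.8 in ESC_KO and 7.03, 13.2 and 11.3 in ESC_WT (log2FC 0.46 ± 0.38, FDR = 0.498). For the difference between the KO effects in iPS and ESC no member passed in DESeq2 or edgeR, where 1.47% of all genes did in DESeq2, and 1 member, Fosl2, had an unadjusted p below 0.05 in DESeq2 (difference 0.74 ± 0.35, FDR = 0.348).

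Other genes of the pathway were followed as lists, beside the shares of all genes that passed. These were 16.1% lower and 13.3% higher in D7_KO, 37.1% and 33.8% from MEF_WT to D3_WT, 37.7% and 35.8% from D7_WT to iPS_WT, and 39.4% and 40.0% in ESC_WT against MEF_WT. Among 9 further AP-1 and Maf leucine zipper genes, 4 were lower and 1 higher in D7_KO. Atf2, which partners Jun at CRE-like sites, rose (0.22 ± 0.05, FDR = 0.000223). From MEF_WT to D3_WT, 6 of these genes fell and 1 rose, and the one that rose was Mafk, a small Maf (1.93 ± 0.15, FDR = 1.17e-37).

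The 19 kinases and regulators upstream of AP-1 split evenly in D7_KO, 5 higher and 5 lower, with a median log2FC of 0.01. Elk3, a serum response cofactor, rose (1.23 ± 0.27, FDR = 4.97e-05) and Mrtfb, an actin-regulated coactivator of serum response factor, fell (-0.39 ± 0.11, FDR = 0.00173). From MEF_WT to D3_WT 10 fell and 5 rose. Mapk3, which encodes the kinase ERK1, was at a mean of 3613 in MEF_WT and 652 in D3_WT (log2FC -2.47 ± 0.12, FDR = 8.13e-101).

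Of the 16 other immediate early genes, 2 were higher and 2 lower in D7_KO, with a median log2FC of -0.06, against -0.53 for the AP-1 members. Nr4a1, an orphan nuclear receptor, rose (0.54 ± 0.17, FDR = 0.00787) and Rhob, a small GTPase, fell (-0.91 ± 0.18, FDR = 4.65e-06). From MEF_WT to D3_WT 10 fell and 4 rose, and from D7_WT to iPS_WT 14 fell and 1 rose. The exception was Ier2, a short-lived nuclear protein (log2FC 0.97 ± 0.20, FDR = 3.05e-06).

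Of 16 genes known as AP-1 targets, 12 fell and 1 rose from MEF_WT to D3_WT, with a median log2FC of -4.26. Spp1, which encodes the secreted protein osteopontin, went from a mean of 79484 to 864 normalised counts (log2FC -6.52 ± 0.27, FDR = 1.94e-129). Plaur, the urokinase receptor, rose (0.60 ± 0.25, FDR = 0.0238). All 16 were lower in ESC_WT than in MEF_WT. In D7_KO 1 of 16 passed: Cd44, a hyaluronan receptor, fell (-0.86 ± 0.24, FDR = 0.00173), and the median log2FC of the list was -0.27. In MEF_KO replicate 3 the summed level of the targets was 28836, against 78463 to 88352 in the other 5 MEF libraries. This sum is weighed most by abundant genes such as Spp1, so it does not show how many of the 16 were low. MEF_KO replicate 3 had low Fos, Fosl1 and Jun, but also a low sum of epithelial markers and high Atf3. The part of AP-1 levels in its target sum was not tested.

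**Figure D5:**
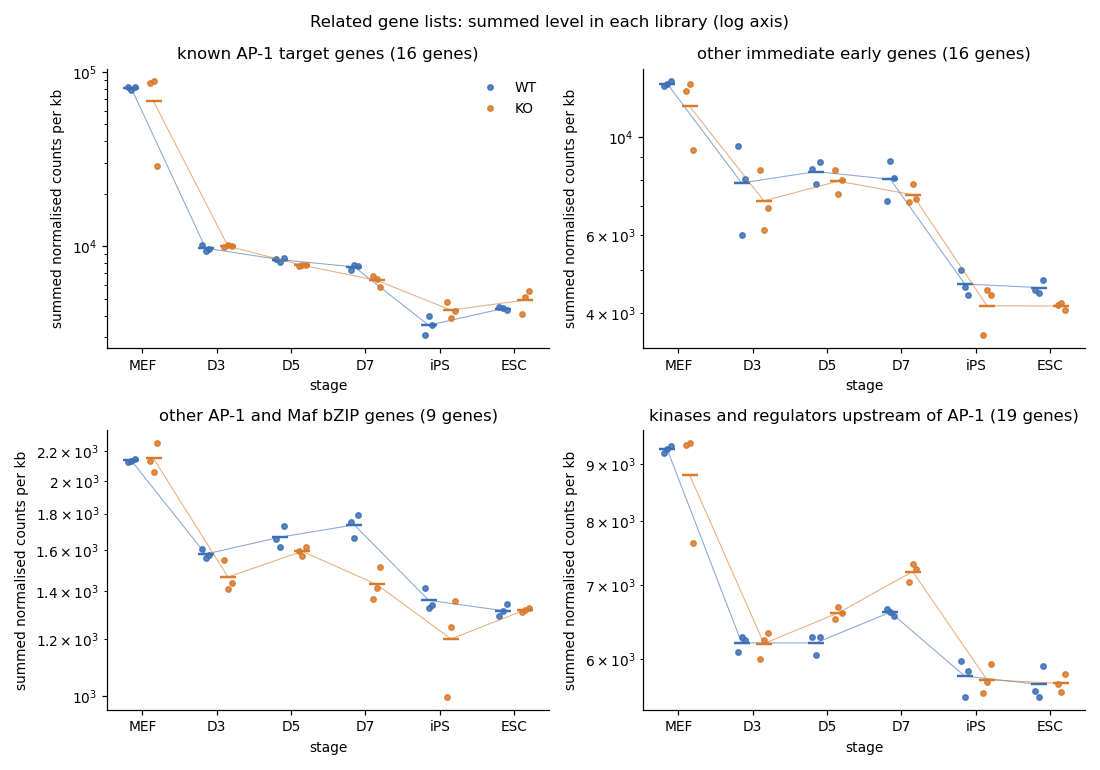
Summed normalised counts per kilobase (log y axis) of 4 related gene lists in every library by stage (x axis), WT blue and KO orange, with a dash at the mean of 3. The AP-1 target list drops from 78463 to 82183 in MEF_WT to 9403 to 10193 in D3_WT, and the upstream regulators stay between 5543 and 9403. A sum weighs abundant genes most, and the target Spp1 alone had a mean of 79484 normalised counts in MEF_WT and 864 in D3_WT.

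The genes with the profile most like each member over the 12 group means were found by Pearson's r on log2(normalised count + 1), among 14629 genes with a mean of 50 or more. The points share libraries and the large step between D7 and the pluripotent cells, so high values are common. For Fosl2 they were Pdzrn3 (r = 0.999), Ccdc80 (0.999) and Hoxa11os (0.998), for Jun Ecm1 (0.995), Rab12 (0.994) and Frmd8 (0.994), and for Atf3 H2-Q1 (0.995), Scel (0.995) and Filip1 (0.995). Fos was nearest to Clic1 (0.994), Fosb to Vgll4 (0.995), Fosl1 to Akt2-ps (0.998), Junb to Selenok-ps8 (0.991), Jund to Pfkfb4 (0.990) and Batf3 to Cdc37 (0.936). Between members, r was 0.99 for Jun with Fos and with Fosl2, 0.94 for Jund with Atf3, and -0.05 for Atf3 with Batf3.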

How the data were processed

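The authors removed adapters with Cutadapt, mapped reads to GRCm38 with STAR and counted them per gene with Rsubread. They deposited raw counts and a normalised signal, which is the counts divided by DESeq2 size factors (largest relative difference 9.26e-15). Deposited log2 values, corrected for library preparation dates, and the authors' fold changes, p-values and FDR were not used here. Groups and replicate numbers came from sample titles. Counts were fitted with DESeq2 1.42.0 in R 4.3.3 as a single factor with 12 levels over all 36 libraries (Wald test, Benjamini-Hochberg FDR < 0.05 over all genes). Differences between KO effects were contrasts of the same fit. A fit of D7_KO against D7_WT alone was tested on simulated counts with known changes and no outlying library. The fit of 12 levels and the differences between KO effects were not tested in this way. The members and lists were chosen with earlier results of these data known. Genes named from lists had the lowest FDR in each direction, and likeness took the 3 highest r per member. GENCODE vM21 gave exon lengths and matched 21417 of 21442 identifiers. RefSeq gave promoter windows for 8 members. Replicates differed by 3.16 to 107 times counting variance. A count of 0 allows up to 3 counts (2.31 to 5.22 normalised counts), which covers counting error only. Alternatives were edgeR 4.0.16 with TMM, TMM size factors, a filter (10 counts in 3 libraries), no independent filtering, only the groups compared, each library left out and a replicate block. Same-numbered libraries paired, by correlations of deviations all above 0.1, for D3 and D7 KO against WT (0.101 to 0.456 and 0.172 to 0.392) and D7 against D5 in WT (0.116 to 0.259). A result on 1 gene of the lists is not reported here.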

Additional observations from a re-analysis of the deposited data

Results flagged for a closer look

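The KO effect on Atf3 differed between time points by a test of the difference itself. The log2FC at D7 minus that at D3 was -0.99 ± 0.27 (DESeq2, FDR = 0.00485), with all 3 KO libraries below all 3 WT libraries at both days. The log2FC at D7 minus that at D5 was -0.83 ± 0.27 (DESeq2, FDR = 0.0365), again with no overlap at either day. This call was lost in 9 of 19 other fits, among them edgeR (FDR = 0.113) and DESeq2 with TMM size factors (FDR = 0.0534). The pluripotent cell markers, whose sum was 20801 to 29013 in D7_KO and 3164 to 6372 in D7_WT, moved with this difference, and their part in it was not tested.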

How the results depend on the processing

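Of 224 counts of members set against an alternative, 187 stayed within 1.5 times the reported count, and no called log2FC changed sign. Fitting only the groups compared gave 1 member at D3 and 1 at D5 (KO against WT, reported as 0), 0 in iPS (reported as 1), 5 for D5_WT against D3_WT (reported as 3), 2 for D7_WT against D5_WT (reported as 0), 2 for the D7 and D3 difference and 3 for the D7 and D5 difference (reported as 1 each). Of all genes, 308 of 13260 passed at D3, 2301 of 14953 at D5 and 615 of 18932 in iPS. For the 2 WT steps 5960 of 18569 and 5320 of 18706 passed, and for the 2 differences 3752 of 16780 and 2241 of 15965. The replicate block within the groups compared, chosen after seeing the data, gave 4 at D3, 1 at D5, 0 in iPS, 5 for D5_WT against D3_WT and 1 for D7_WT against D5_WT. In the same order, 556 of 12854, 2300 of 14545, 593 of 16911, 5488 of 17755 and 5112 of 17483 genes passed. The planned replicate block over all libraries changed no count by more than 1.5 times, and the call it lost was Jun at D7. By the mark of all correlations above 0.1, pairing held at D3 and D7 and between D7_WT and D5_WT. D5_KO against D5_WT, at 0.268, 0.0897 and 0.221, missed that mark. So did D5_WT against D3_WT, at 0.158, 0.0614 and 0.208, so pairing there is not settled. With edgeR the ESC count and the D7 and D5 difference were 0, and TMM size factors gave 0 for the latter. Without MEF_KO replicate 3, also chosen after seeing the data, the counts were 1 for D7_WT against D5_WT and 2 for the D7 and D3 difference, and 3, 1 and 1 for D7, iPS and ESC KO against WT. In that order, 5478 of 20187, 2993 of 18109, 6818 of 21019, 4089 of 21019 and 2222 of 17278 genes passed. Leaving out 1 library gave 0 to 3 in iPS KO against WT, 0 to 1 in ESC (0 whichever ESC library was left out), 2 to 4 for D5_WT against D3_WT, 0 to 1 for D7_WT against D5_WT, 0 to 1 for ESC_WT against iPS_WT, 1 to 2 for the D7 and D3 difference, 0 to 1 for the D7 and D5 difference and 0 to 1 for the iPS and ESC difference. TMM moved the median of all genes by 0.11 in ESC_WT against MEF_WT. Sign differed in 97 of 1512 comparisons of member values that passed in neither fit. The cause of these changes was not tested. Batf3 had at most 28 counts in any library and, in pluripotent cells, Fosb had at most 22, so their errors are wide. Taking the longest transcript as the length moved 45 of 108 shares by more than 1 SD. Using all 36 libraries kept at least 2 of the 3 most alike genes for 2 members, and a pseudocount of 10 for 7.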

Other observations

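Fos and Jun varied together among the D3 libraries of both genotypes. Replicate 1 held the highest Fos and Jun levels in D3_WT (744 and 2093) and in D3_KO (513 and 1602), and replicate 2 the lowest in both (301 and 1437, 253 and 1262). Over the summed level of the 16 other immediate early genes, replicate 2 was also the lowest at D3, at 6012 in WT and 6179 in KO, and replicate 1 the highest, at 9559 and 8443. Jund followed another order, highest in replicate 3 of D3_WT at 4244 and in replicate 2 of D3_KO at 3317.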
